A study of Mus musculus with 4 samples.

Results

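Complex I, or NADH dehydrogenase, is the largest enzyme of the mitochondrial respiratory chain and the point at which electrons from NADH enter it. Its matrix arm takes electrons from NADH through a flavin and a chain of iron-sulfur clusters to ubiquinone, and its membrane arm pumps protons across the inner membrane. The catalytic core is built from nuclear and mitochondrial genes, a larger number of accessory subunits surrounds it, and assembly factors help to build the enzyme without staying in it. Muscle cells depend heavily on this enzyme, and its amount rises as myoblasts become myotubes.

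The genes described here are those whose symbol in the array annotation begins with Nduf followed by a, ab, af, b, c, s or v and a digit. The rule uses the symbol and no measured difference, and each gene was represented by the single-symbol probe set with the highest mean signal over the arrays. There were 44 such genes among 18193 genes on the array, 36 with a subunit symbol and 8 with an Ndufaf symbol. Of these, 42 were bright enough to be tested, 34 subunit genes and all 8 Ndufaf genes. Another 10 probe sets carried a complex I symbol together with a second symbol and were not used. Ndufa4 is counted by its symbol, although its product is now placed with cytochrome oxidase.

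The cells were C2C12, an established mouse myoblast line that fuses into myotubes when serum is lowered. All cells were switched from 10% fetal bovine serum to 2% horse serum in medium with 25 mM glucose and differentiated with vehicle (2 arrays), with tranylcypromine, abbreviated TC (1 array), or with the compound S2101 (1 array). The labels call both compounds inhibitors of LSD1, a histone demethylase. RNA was taken 48 h later, and the labels give no dose. Each compound has 1 array and the labels do not say that arrays came from separate cultures, so the p-values below reflect the spread among these 4 samples alone, and that spread may be technical.

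The values are MAS5 signals, a linear brightness per probe set, and differences below are on the scale log2(signal + 50). A gene was called changed at a Benjamini-Hochberg adjusted p under 0.05 over 9097 genes tested with limma. Both inhibitor arrays together were compared with both vehicle arrays, and each compound was also compared alone. The joint comparison treats the TC and S2101 arrays as replicates, so any difference between the compounds enters its error. Markers of the labelled cells were present, as all 11 myotube markers on the array were bright enough to be tested. Among them Myog, the myogenic factor of early differentiation, had 12999 and 12821 on the vehicle arrays, 13386 with TC and 11963 with S2101. The adipocyte markers Adipoq, Cidec, Fabp4, Lep and Retn and the leukocyte markers Ptprc, Cd68, Adgre1 and Cd3e stayed below the brightness needed for testing, as did the neuronal markers Rbfox3, Syp and Snap25. The leukocyte marker Cd14 was bright enough, with 338 and 409 on the vehicle arrays, 354 with TC and 438 with S2101. Of the neuronal list Tubb3, Nefl and Map2 were bright enough. Map2, a microtubule-associated protein gene, rose with the inhibitors (0.39; adjusted p = 0.0105, limma). Nefl and Tubb3 went the other way, at -0.46 and -0.22 (adjusted p = 0.104 and 0.262, limma). With S2101 alone Nefl stood at -0.68. The part of these markers in the complex I values was not tested. Median signals over all probe sets lay between 63.4 and 75.1 on the 4 arrays. The summed signal of the 42 complex I genes was 244175 and 242741 on the vehicle arrays, 257301 with TC and 239726 with S2101.

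A minority of the promoters of these genes carry the short sequences shown here, among them those of several genes discussed below. RefSeq promoter windows of build GRCm38.p6, from 250 bases before to 50 bases after each start, were at hand for 39 of the 44 genes (41 windows). The letters AAGATGGC, a form of the YY1 motif, were searched on both strands and stood in 7 of the 41 windows (17.1%), against 2.75% of 32851 windows of all genes. All 7 matches read in the direction of the gene and began 10 to 38 bases after the annotated start. The letters contain ATG, and whether that ATG is the start of translation was not tested. The stretches below run 5′ to 3′ on the strand of the gene with the motif in capitals.
Ndufa3: cttgtcgccgccaagaacAAGATGGCcggg
Ndufa9: cgtgaggcattgtgggagAAGATGGCggcc
Ndufaf8: ccggaagaggcagggcccAAGATGGCggcg
Ndufb8: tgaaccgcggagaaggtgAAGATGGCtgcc
Ndufc1: aggcggagcctgcggaacAAGATGGCgccg
Ndufs4: ctggcgtttgcctacaggAAGATGGCggcg
Ndufs7: tgtctgaaggccgaggccAAGATGGCggcg

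These stretches lie at chr7:3617377-3617406 on the plus strand (Ndufa3), chr6:126849104-126849133 on the minus strand (Ndufa9), chr11:120098926-120098955 on the plus strand (Ndufaf8), chr19:44555393-44555422 on the minus strand (Ndufb8), chr3:51408922-51408951 on the minus strand (Ndufc1), chr13:114388048-114388077 on the minus strand (Ndufs4) and chr10:80249455-80249484 on the plus strand (Ndufs7). The palindromic motif of nuclear respiratory factor NRF1, spelled by the capitals in the next 2 stretches, stood in 2 of the 41 windows (4.88%), against 0.971% of all windows. Both belong to assembly factors, Ndufaf4 with the motif 113 bases before the annotated start and Ndufaf5 with it 16 bases after.
Ndufaf4: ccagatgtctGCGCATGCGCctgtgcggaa
Ndufaf5: agtcccgttgGCGCATGCGCctaatagaaa

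The first of these lies at chr4:24897960-24897989 and the other at chr2:140170652-140170681, both on the plus strand. The ETS letters CCGGAAG, bound by factors such as GABPA, stood in 6 of the 41 windows (14.6%), against 8.86% of all, and the estrogen-related receptor letters TCAAGGTCA in 0 of 41, against 0.423%. The YY1 and ETS letters both occur in the window of Ndufaf8, without overlapping. A match is a description of letters, not of binding. The 7 genes with the YY1 letters differed between inhibitor and vehicle arrays by 0.02 to 0.07 on the log2 scale, within the span of -0.42 to 0.22 of the 31 tested genes whose windows lack them.

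Transcripts of complex I differed little between inhibitor and vehicle arrays. Of the 42 genes tested, 0 rose and 0 fell (limma, adjusted p under 0.05), where 4.28% of all genes tested rose and 3.74% fell, 8.01% in all. Only Ndufv1, 1 of the 42, had an unadjusted p under 0.05, against 22.3% of all genes. The median difference was 0.043 over the complex I genes and 0.014 over all genes tested, and 27 of the 42 differences were above zero, against 52.9% of all genes. Differences in 41 of the 42 lay within 0.25 of zero and in 30 within 0.1. Small differences were common among all genes tested too, with an interquartile range of -0.11 to 0.13. The median absolute difference was 0.062 over the 42 genes and 0.12 over all genes tested. With TC alone, the 95% interval of Ndufb1 did not exclude a halving. Over both inhibitor arrays together, the 95% intervals of all 42 excluded a doubling or a halving, and those of 41 lay within 0.5 on the log2 scale. In 21 of the 42 the difference was smaller than the gap between that gene's own vehicle arrays, a gap with a median of 0.062. The share of all genes with so small a difference was not counted. In whole-culture RNA, fewer cells of a type and less RNA per cell cannot be told apart.

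**Figure D1:**
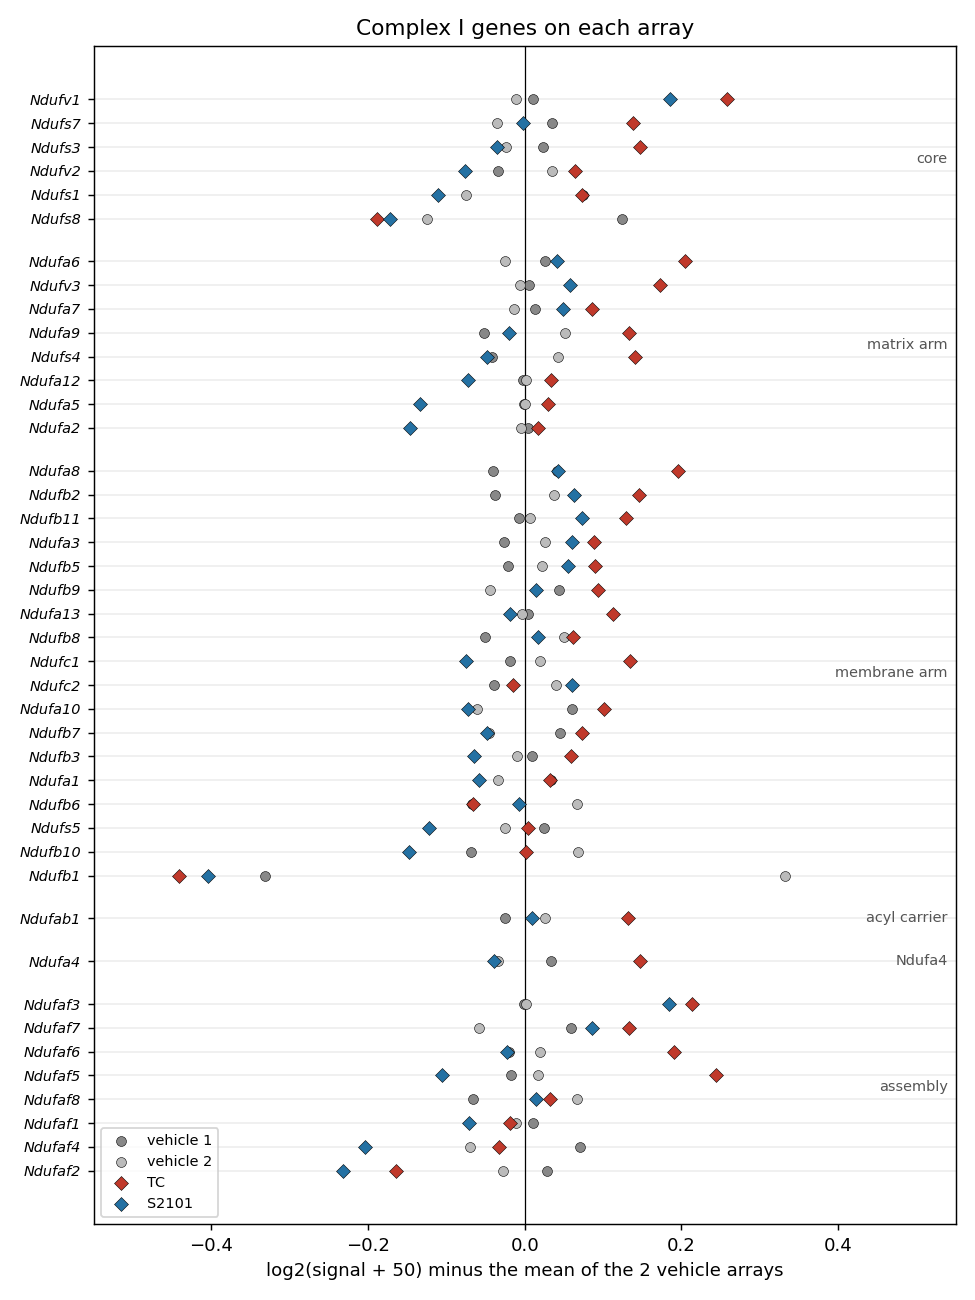
Log2(signal + 50) of 42 complex I genes on each array minus the mean of the 2 vehicle arrays, grouped by role; each point is 1 array, circles are vehicle and diamonds are inhibitors. The vehicle arrays of Ndufb1 stand 0.66 apart, Ndufv1 has both inhibitor arrays above both vehicle arrays, and TC lies to the right of S2101 in 38 of the 42 genes.

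The catalytic core was represented by 6 nuclear genes. Ndufv1, which encodes the subunit that binds NADH and the flavin, had signals of 4612 and 4541 on the vehicle arrays, 5481 with TC and 5209.7 with S2101. By this probe set, both inhibitor arrays were above both vehicle arrays. The difference of 0.22 ± 0.07 (SE; 95% interval 0.07 to 0.37; 1.17-fold) was the largest increase among complex I genes and did not pass (limma, adjusted p = 0.0819). With TC alone it was 0.26 ± 0.07 (adjusted p = 0.0602, limma), and it passed when genes below the 75th percentile of brightness were left out (adjusted p = 0.0452, limma).

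Ndufs8, a core subunit that carries iron-sulfur clusters close to the ubiquinone site, pointed the other way. Its signals were 8829.6 and 7420.3 on the vehicle arrays, 7099 with TC and 7177 with S2101, so both inhibitor arrays were below both vehicle arrays. The difference was -0.18 ± 0.08 (adjusted p = 0.247, limma), but the vehicle arrays themselves were 0.25 apart. Of 6 bright probe sets of Ndufs8, 4 were higher and 2 lower with the inhibitors, and their average turned the difference to 0.037. Ndufs3, a core subunit of the matrix arm, had 6258 and 6051 on the vehicle arrays, 6818 with TC and 6002 with S2101, with the compounds on opposite sides of the vehicle arrays. Ndufs1, Ndufs7 and Ndufv2 completed the core genes, and the median of all 6 was 0.025.

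Accessory subunits of the matrix arm were 8 in number, with a median difference of 0.051. Ndufa6, a small subunit of this arm, had 7336 and 7079.9 on the vehicle arrays, 8310.6 with TC and 7418 with S2101, a difference of 0.12 ± 0.07 (adjusted p = 0.376, limma). Ndufv3, an accessory partner of the NADH-binding subunit, had 6561 and 6507, then 7374 with TC and 6804 with S2101, a difference of 0.12 ± 0.07 (adjusted p = 0.371, limma). In both genes the inhibitor arrays were above both vehicle arrays, and TC stood farther out than S2101. Ndufa2 had 8137 and 8087 on the vehicle arrays, 8209 with TC and 7324 with S2101, the lowest of its 4 values. The stability subunit Ndufs4, whose loss causes a mitochondrial disease in mice, had 2476 and 2628, then 2816 with TC and 2466 with S2101. Ndufa5, Ndufa7, Ndufa9 and Ndufa12 were the other genes of this arm.

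The membrane arm gave 18 tested accessory genes with a median difference of 0.026, and 12 of the 18 differences were above zero. Ndufa8 had 5228 and 5536 on the vehicle arrays, 6167 with TC and 5541 with S2101, a difference of 0.12 ± 0.08 (adjusted p = 0.407, limma). Its S2101 value exceeded the higher vehicle value by very little. Ndufb10 had 4191 and 4612 on the vehicle arrays, 4401 with TC and 3964 with S2101 (-0.07 ± 0.08; adjusted p = 0.664, limma), so TC lay between the vehicle arrays and S2101 below them.

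Ndufb1, the dimmest gene tested in the group, had the largest negative difference and the least certain one. Its signals were 221 and 379.8 on the vehicle arrays, 202 with TC and 208 with S2101, a difference of -0.42 ± 0.21 (95% interval -0.88 to 0.036; adjusted p = 0.264, limma). Both inhibitor arrays were below both vehicle arrays, but close to the lower of them. Without vehicle array 1 the difference was -0.75 and passed (adjusted p = 0.0252, limma), and without vehicle array 2 it was -0.09 (adjusted p = 0.912, limma). The value therefore rests on which vehicle array is used.

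The remaining membrane arm genes, Ndufa1, Ndufa3, Ndufa10, Ndufa13, Ndufb2, Ndufb3, Ndufb5, Ndufb6, Ndufb7, Ndufb8, Ndufb9, Ndufb11, Ndufc1, Ndufc2 and Ndufs5, lay closer to zero than Ndufa8. Ndufab1, the mitochondrial acyl carrier protein that sits in both arms, had a difference of 0.07 ± 0.07 (adjusted p = 0.630, limma). Ndufa4 had 10491 and 10004.5 on the vehicle arrays, 11346 with TC and 9972 with S2101. Its paralogue Ndufa4l2, a gene known to be induced by hypoxia, was not tested, with signals of 13.1, 19.6, 7.83 and 14.5 in the same order. The single-symbol probe set of Ndufb4 was also too dim, with 41.5, 31.1, 33.4 and 36.6. Signals of both were below the offset of 50, and the mean signal required for testing was 179.

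The 8 Ndufaf assembly factors had a median difference of 0.046. Ndufaf3, which acts with Ndufaf4 in building the ubiquinone-binding module, had 602 and 603 on the vehicle arrays, 706 with TC and 691 with S2101. Both inhibitor arrays were above the nearly equal vehicle arrays, and the difference of 0.20 ± 0.10 missed the threshold (adjusted p = 0.286, limma). Its partner Ndufaf4 had 1509 and 1365 on the vehicle arrays, 1402 with TC and 1239 with S2101 (-0.12 ± 0.10; adjusted p = 0.523, limma). TC was between the vehicle arrays and S2101 below both, so these partner genes did not share a direction.

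Ndufaf2, a paralogue of Ndufa12 that occupies its place in a late assembly intermediate, had 943 and 905 on the vehicle arrays, 819 with TC and 779 with S2101. Both inhibitor arrays were below both vehicle arrays, with a difference of -0.20 ± 0.09 (adjusted p = 0.257, limma). Ndufaf5, which modifies the core subunit Ndufs7, had 372 and 383 on the vehicle arrays, 456 with TC and 347 with S2101, with the compounds on opposite sides. Ndufaf6, needed for early steps of assembly, had 333 and 343, then 393 with TC and 332 with S2101, with TC above both vehicle values and S2101 barely below the lower of them. Ndufaf1, the methyltransferase gene Ndufaf7, and Ndufaf8, the partner of Ndufaf5, completed the group.

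Taken alone, the compounds gave 0 called complex I genes each (limma). With TC 4.36% of all genes rose and 3.81% fell, 8.18% in all. Of the complex I genes, 4 (Ndufv1, Ndufa6, Ndufa8 and Ndufv3) had an unadjusted p under 0.05, against 23.6% of all genes. With S2101 3.37% of all genes rose and 3.33% fell, 6.71% in all, and 1 complex I gene, Ndufv1, had an unadjusted p under 0.05, against 20.8%. The TC array was above both vehicle arrays in 30 of the 42 genes, where 43% of all genes showed this, and below both in 4, against 35.3%. The S2101 array was above both vehicle arrays in 12 of the 42, against 39.2% of all genes. It was below both in 23, against 37.1%. The median differences were 0.089 with TC and -0.029 with S2101, against 0.019 and 0.0070 over all genes tested. Differences above zero numbered 35 of 42 with TC, against 54% of all genes, and 16 of 42 with S2101, against 51.8%. Both compounds are compared with the same vehicle arrays, so these values are not independent of each other.

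Both inhibitor arrays were above both vehicle arrays in 11 of the 42 genes, close to the 27.6% of all genes. They were below both in 4 genes, Ndufaf1, Ndufaf2, Ndufb1 and Ndufs8, against 23.4% of all genes. In 14 of the 42 the TC array was above and the S2101 array below both vehicle arrays, against 7.41% of all genes, and in 0 the reverse, against 5.4%. In 0 of the 42 did both compounds clear the vehicle arrays on opposite sides by at least 0.1 on the log2 scale. The share of all genes that did so was not counted, so this count cannot be read as a trait of complex I. The gap between the vehicle arrays had a median of 0.062 in complex I genes, against 0.092 over all genes tested.

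Set directly against each other, TC exceeded S2101 in 38 of the 42 genes, where 54% of all genes showed this order. No complex I gene passed (limma, adjusted p under 0.05; 0.033% of all genes passed), and 2, Ndufc1 and Ndufa4, had an unadjusted p under 0.05, against 8.71% of all genes. The median difference, TC minus S2101, was 0.12 over the 42 genes and 0.016 over all genes tested. Ndufaf5 showed the largest difference, 0.35 ± 0.17 (adjusted p = 0.615, limma), followed by Ndufaf6 with 0.21 ± 0.18 (adjusted p = 0.772, limma) and Ndufc1 with 0.21 ± 0.08 (adjusted p = 0.510, limma). Ndufc1, a small membrane arm subunit, had 11222 and 11526 on the vehicle arrays, 12485 with TC and 10790.1 with S2101.

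The opposite order occurred in Ndufb1, Ndufb6, Ndufc2 and Ndufs8, by the probe set used for each. Of 3 bright probe sets of Ndufc2, 2 had TC above S2101, as did 1 of 2 of Ndufb6 and 3 of 6 of Ndufs8. Ndufb1, whose signals are given above, differed by -0.04 ± 0.30 (adjusted p = 0.984, limma). Ndufc2 had 8776 and 9275 on the vehicle arrays, 8926 with TC and 9413 with S2101, a difference between compounds of -0.08 ± 0.08 (adjusted p = 0.826, limma). Ndufb6 had 8392 and 9216, then 8401 with TC and 8750.1 with S2101 (-0.06 ± 0.09; adjusted p = 0.881, limma). Doses are unknown, so these values compare 1 array with 1 other and say nothing of the compounds at matched doses.

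**Figure D2:**
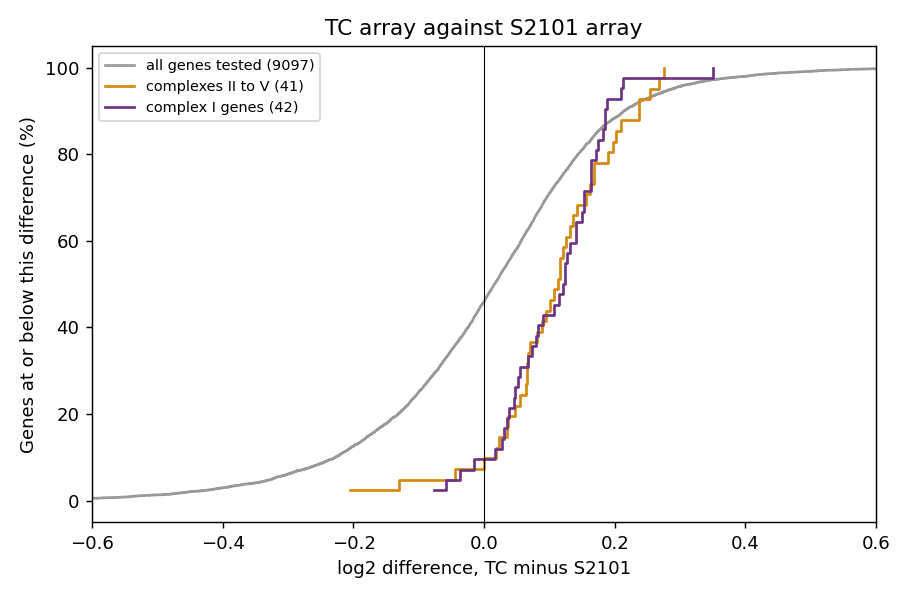
Cumulative share of genes (y, percent) by the log2 difference of the TC array minus the S2101 array (x). Shown are 42 complex I genes, 41 genes listed under complexes II to V and 9097 genes tested. Differences beyond 0.6 either way are not drawn. Curves of complex I and of the other complexes run close together, with medians of 0.12 and 0.11, and both cross zero at a far lower share of genes than the curve of all genes, whose median is 0.016.

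The same order of TC above S2101 held for 38 of 41 tested genes listed under complexes II to V, with a median of 0.11. By complex it held for 4 of 4, 9 of 9, 11 of 12 and 14 of 16. These lists count Cox7a2l, a supercomplex factor, and Atpif1, the ATP synthase inhibitor, which are not standard subunits. Both had the opposite order, at -0.045 and -0.13, as did the subunit gene Atp5o at -0.20. All 11 myotube markers had the same order, with a median of 0.15, whereas among 11 regulators of mitochondrial biogenesis it held for 4, with a median of -0.017. Brightness moved with the order as well. Among the 2274 brightest genes tested, which include 33 of the 42 complex I genes, the median TC minus S2101 was 0.044 over all and 0.12 over the complex I genes. Among the 2275 dimmest genes tested the median was -0.032. After quantile normalization, which gives the arrays 1 common distribution, TC exceeded S2101 in 37 of the 42 genes with a median of 0.091, beside 0.014 over all genes. The part of brightness or myotube content in the order was not tested.

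**Figure D3:**
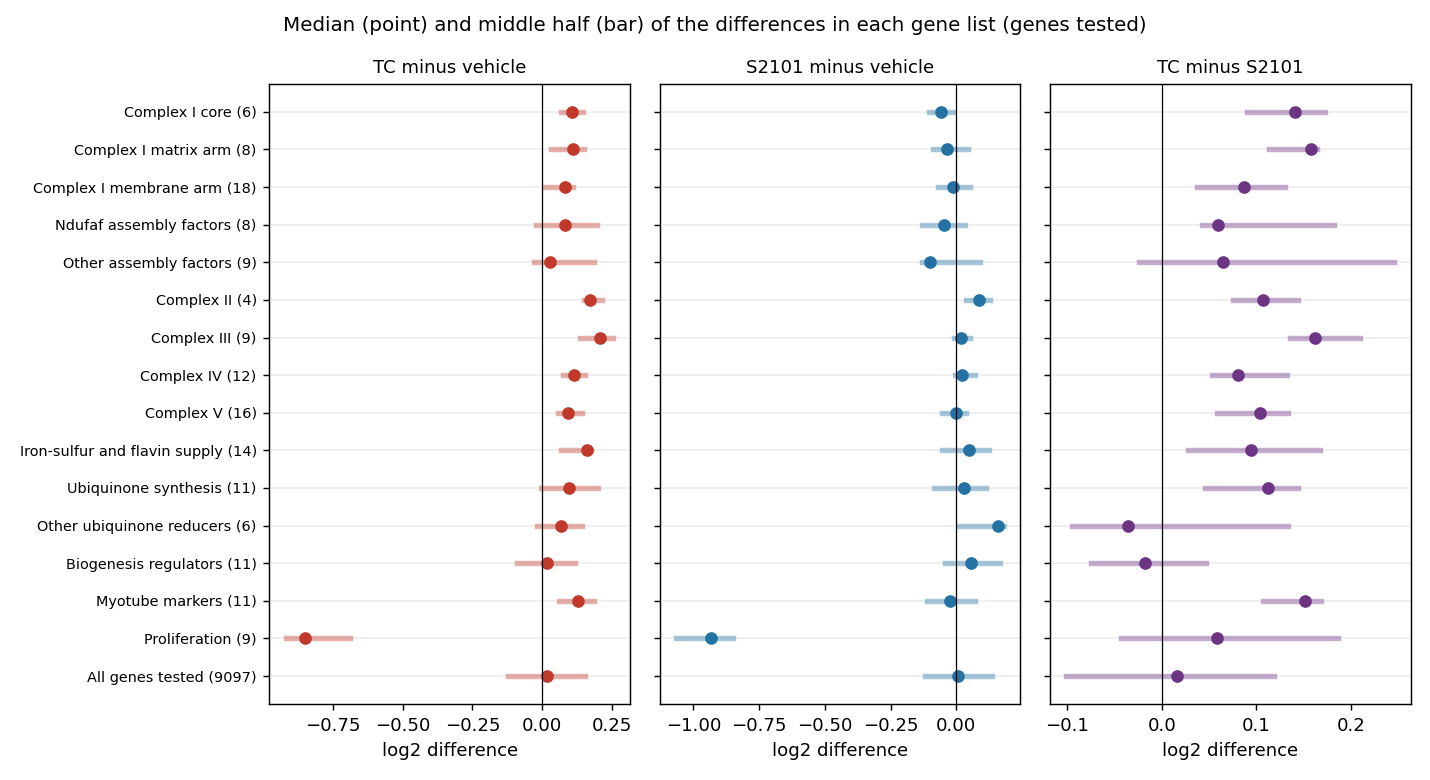
Median (point) and interquartile range (bar) of log2 differences in each gene list, with the number of genes tested in brackets; the panels show TC minus vehicle, S2101 minus vehicle and TC minus S2101 on separate x scales. For TC minus S2101, complex I groups sit beside complexes II to V. For S2101 minus vehicle, medians are negative for complex I core (-0.056), matrix arm (-0.034), membrane arm (-0.013) and Ndufaf factors (-0.047). Complexes II, III and IV are positive there (0.086, 0.018 and 0.020), and complex V is at -0.0022. For TC minus vehicle, complexes II and III (0.17 and 0.21) lie to the right of the complex I groups. Proliferation genes lie far to the left in both comparisons with vehicle, with medians of -0.85 and -0.93.

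The only mitochondrially encoded complex I gene with its own single-symbol probe set, ND5, a proton-pumping core subunit of the membrane arm, ran against the nuclear genes. Its signals were 13199 and 11314 on the vehicle arrays, 8968 with TC and 13023 with S2101. TC was below both vehicle arrays and S2101 between them. ND5 fell with TC, by 0.44 ± 0.09 on the log2 scale (adjusted p = 0.0190, limma), and stood at 0.09 ± 0.09 with S2101 (adjusted p = 0.639, limma). Between the compounds the difference was -0.54 ± 0.11 and did not pass (adjusted p = 0.263, limma). Over both inhibitor arrays it was -0.18 ± 0.14 (adjusted p = 0.523, limma).

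The lists of other genes that build or supply complex I are short, and their counts between inhibitor and vehicle arrays are to be read against the 8.01% of all genes called and the 22.3% with an unadjusted p under 0.05 (limma). Of 9 tested assembly factors with other symbols, 0 passed, 1 had an unadjusted p under 0.05, and the median was -0.009. Nubpl, which delivers iron-sulfur clusters to complex I, stood at 0.20, Dmac1 at 0.18, Ecsit at -0.13 and Aifm1 at -0.11. Of 14 genes of iron-sulfur cluster and flavin supply 0 passed and 3 had an unadjusted p under 0.05, with a median of 0.10. Among them Lyrm4, a partner of the cysteine desulfurase, stood at 0.37 and the desulfurase Nfs1 at 0.23, while the flavin carrier Slc25a32 stood at -0.23 and the chaperone Hspa9 at -0.09.

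The same shares stand behind the next lists. Of 11 genes listed under ubiquinone synthesis 0 passed and 2 had an unadjusted p under 0.05 (limma), with a median of 0.11. Coq10a at 0.36 and Coq10b at -0.18 encode ubiquinone-binding proteins and not enzymes of its synthesis. The other genes ran from 0.18 for Coq8a to -0.18 for Pdss2. Among 6 other enzymes that feed ubiquinone 0 passed and 1, Etfdh (0.28), had an unadjusted p under 0.05. Sqor stood at 0.15, Etfa at -0.04 and Etfb at -0.08. Among 11 biogenesis regulators 0 passed and 2 had an unadjusted p under 0.05, with Ppargc1b, a coactivator of oxidative genes, at 0.44 (adjusted p = 0.0647, limma), Gabpa at 0.18, Polg at -0.11 and Pprc1 at -0.23. Of 41 genes listed under complexes II to V, with a median of 0.068, 1 rose. It was the muscle isoform gene Cox7a1 of cytochrome oxidase (0.96 ± 0.17; adjusted p = 0.00610, limma). Its signals were 123.6 and 124.0 on the vehicle arrays, 316 with TC and 260 with S2101. The vehicle signals lay below the mean of 179 required for testing, so only the inhibitor arrays brought Cox7a1 into the test. An unadjusted p under 0.05 was found in 7 of the 41 over both inhibitor arrays and in 15 with TC, against 22.3% and 23.6% of all genes. With S2101 it was found in 4, against 20.8%, and between the compounds in 8, against 8.71%. With TC alone Uqcrc1, a core subunit of complex III, also rose (0.29; adjusted p = 0.0461, limma), and with S2101 alone Atp5o, a stalk subunit of ATP synthase, did (0.32; adjusted p = 0.0223, limma). Complex I was not tested against these complexes.

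Proliferation genes differed far more between these arrays. Of 9 tested, 8 fell (Mki67, Top2a, Ccna2, Cdk1, Mcm5, Pcna, Birc5 and Ccne2; limma), against 3.74% of all genes. The median was -0.93, against 0.014 over all genes tested. Mki67, a marker of cycling cells, went from 1628 and 1575 on the vehicle arrays to 798 with TC and 824 with S2101. Their part in the complex I values was not tested. The myotube markers had a median of 0.053 over both inhibitor arrays, from 0.18 for Des to -0.23 for the cardiac actin gene Actc1. Of these 11, 0 passed and 2 had an unadjusted p under 0.05 (limma), against 8.01% and 22.3% of all genes. With S2101 alone Actc1 fell (-0.28; adjusted p = 0.0362, limma).

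Several genes had more than 1 bright probe set under their symbol, and these may detect different transcript variants or related transcripts. Of 21 such genes with 55 probe sets in all, 10 had probe sets on both sides of zero between inhibitor and vehicle arrays, 10 were higher in every probe set and 1 was lower in every probe set. For TC minus S2101, 11 of the 21 were higher in every probe set and 10 had both signs. Ndufv1 was higher with the inhibitors in 3 of 3 probe sets, with differences of 0.22, 0.11 and 0.07, so the probe set used here gave the largest value. With S2101 alone the same probe sets stood at 0.19, 0.014 and 0.033. Only in the probe set used here did S2101 lie above both vehicle arrays, and in the others it lay between them. Ndufs8 spread most, as its probe sets ranged from -0.19 to 0.25.

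**Figure D4:**
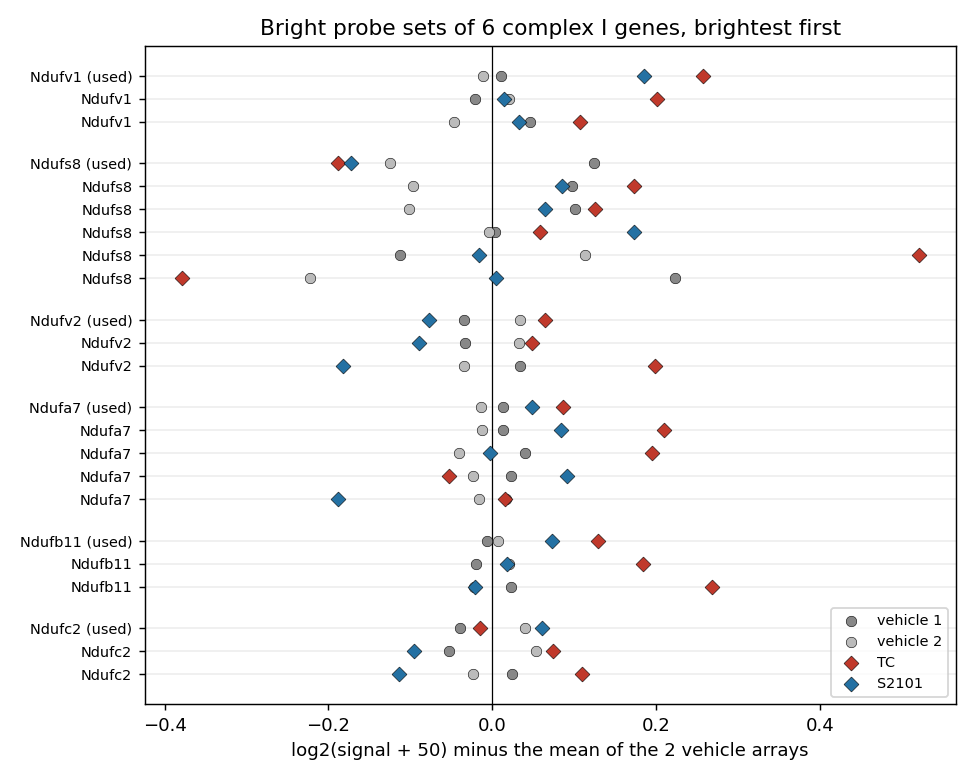
Log2(signal + 50) of every bright probe set of 6 complex I genes on each array, minus the mean of the 2 vehicle arrays of that probe set; circles are vehicle, diamonds are inhibitors, and the probe set used for the gene is marked. Ndufv1 has TC on the right in all 3 probe sets, while 4 of 6 Ndufs8 probe sets have a higher and 2 a lower mean of the inhibitor arrays.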

How the data were processed

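The authors deposited linear MAS5 signal intensity values, 1 per probe set, and the submitters' processing notes name MAS5 and Affymetrix Expression Console. The deposited signals had a 2% trimmed mean of 500.0 on each of the 4 arrays. Probe sets with 1 gene symbol in the platform annotation (34945 of 45101) gave 18193 genes, each by its brightest probe set. The 9097 whose mean signal reached the median over genes were tested, without array controls. Log2 values were computed here from the deposited signals with an offset of 50 and tested with limma 3.58.1 (R 4.3.3; lmFit, then eBayes with a trend on intensity; Benjamini-Hochberg). The inhibitor comparison had 2 residual degrees of freedom and a prior of 8.08. Single compounds came from a fit of 3 groups with 1 and 8.37, which takes the spread of each lone array from the vehicle pair. Array number limits the precision. Fits were checked on simulated data.

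The genes and lists were chosen with earlier results of these data known. Full values are given for the 5 highest and 5 lowest complex I genes between inhibitor and vehicle arrays and the 3 highest and 3 lowest between compounds. Of other lists, mostly the 2 highest and 2 lowest and any past the test are named, and further complex I genes were named after their values were seen. All 44 genes matched the RefSeq tables (GRCm38.p6) by gene identifier. Alternatives were other offsets, filters, probe set choices, variance priors and scalings, arrays left out and a replicate block.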

Additional observations from a re-analysis of the deposited data

How the results depend on the processing

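The count of complex I genes past the test was 0 for inhibitors against vehicle under all alternatives except when vehicle array 1 was left out (1, Ndufb1) and with the replicate block. Leaving out each array in turn gave counts of 0 to 1 and medians of -0.029 (without TC) to 0.089 (without S2101), so the median takes the sign of the compound that is left. The numbers in the sample descriptions served as a replicate block (Control 1 with TC, Control 2 with S2101). Same-numbered arrays deviated together with a correlation of 0.065. Each compound has 1 array, so number and compound cannot be told apart, and the correlation cannot show whether same-numbered arrays share a batch. The blocked fit called 1 complex I gene, Ndufv1 (adjusted p = 0.0411, limma), and 1223 of all genes. For TC, 1 gene, Ndufv1, passed with the filter at the 75th percentile. For S2101 and for TC against S2101 the count stayed 0 in each alternative tested. With averaged probe sets the difference turned sign for Ndufs8 (0.037), Ndufb6 (0.012) and Ndufc2 (-0.0090). Over left-out arrays the differences ranged from -0.11 to 0.24 for Ndufaf5, -0.022 to 0.19 for Ndufaf6, -0.15 to 0.0014 for Ndufb10, -0.10 to 0.031 for Ndufb6, -0.076 to 0.13 for Ndufc1 and -0.017 to 0.062 for Ndufc2. Of all 42 genes, 11 changed sign without TC, 10 without S2101, 6 without vehicle array 1, 4 without vehicle array 2, 7 with averaged probe sets, 2 with centring on the median, 1 with quantile normalization and 0 with either other offset. Over all genes, the 729 calls for inhibitors became 266 without a filter, 457 with the stricter filter, 423 without the intensity trend, 478 with averaged probe sets and 107 over every probe set. The 744 calls for TC became 12 without a filter, 83 without the trend and 0 over every probe set, and the 610 for S2101 became 8, 112 and 0. The 3 calls between the compounds became 22 with averaged probe sets, 13 with quantile normalization, 10 with centring and 0 under the same 3 alternatives. Leaving out a vehicle array gave no test for a single compound, as no residual degree of freedom was left. Dim genes such as Ndufb1 carry the widest errors.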
